A study of Homo sapiens with 6 samples.

Results

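The genes described here encode the MYC, MAX and MXD network of transcription factors. They were taken by name from the deposited table of coding genes: all 10 of the 10 genes sought (MYC, MYCL, MAX, MXD1, MXD3, MXD4, MXI1, MNT, MLX and MLXIP) were among its 15376 rows. Total RNA of PC9ER cells was sequenced; this human line comes from a non-small cell lung cancer, depends on EGFR, a receptor tyrosine kinase, and resists the EGFR inhibitor gefitinib. There were 3 control libraries, from cells given the vehicle DMSO, and 3 libraries from cells given 1 µM gefitinib, which the protocol places in the final 6 h. That single protocol, given for every sample, starts with 72 h of a Notch inhibitor or DMSO. The sample titles name control or gefitinib and no Notch inhibitor. Overnight serum withdrawal follows in that protocol, in cells otherwise grown with 10% fetal calf serum. Whether controls also lost serum is not stated, so the drug and a change of serum cannot be told apart. The labels name a single cell line and do not call the replicates separate cultures, so p-values reflect spread among these libraries only, which may be technical.

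MAX is the shared partner of this network. It pairs through a basic helix-loop-helix zipper with MYC or MYCL, which activate genes of growth and ribosome production, or with MXD1, MXD3, MXD4, MXI1, MNT or MGA, which repress, and all these pairs bind the E-box, whose preferred form reads CACGTG. A parallel arm uses MLX in place of MAX. MLX pairs with MLXIP, also called MondoA, a sensor of glucose metabolites, and can also bind MXD1, MXD4 and MNT. In lung cancers driven by EGFR, MYC transcription is among the outputs of the growth factor signal.

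With gefitinib, MYC transcripts fell and those of several MYC antagonists rose. MYC fell 5.19-fold and the MLX gene 1.89-fold. MXD4 rose 6.97-fold, MYCL 4.75-fold, MXD3 2.96-fold, MXD1 1.71-fold and MAX, the common partner, 1.52-fold. MXI1, MNT and MLXIP did not pass the test. In all, 5 of the 10 genes were higher and 2 lower at a limma adjusted p under 0.05, which is the threshold throughout; of 15229 genes tested, 28.3% were higher and 22.8% lower, so calls are common in these libraries. The same 5 genes were higher and the same 2 lower without overlap between the groups, as were 32.3% and 25.7% of all genes tested. On the recovered reads, edgeR called 5 members higher and 3 lower, MNT being the third, against 30.5% and 30.8% of 12167 genes. Values are normalized read counts, the authors' counts scaled to the same total in each library, and a difference is the mean log2(value + 1) with gefitinib less that in control, with its standard error (SE). Bulk RNA cannot tell fewer cells of a kind from less RNA per cell.

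**Figure D1:**
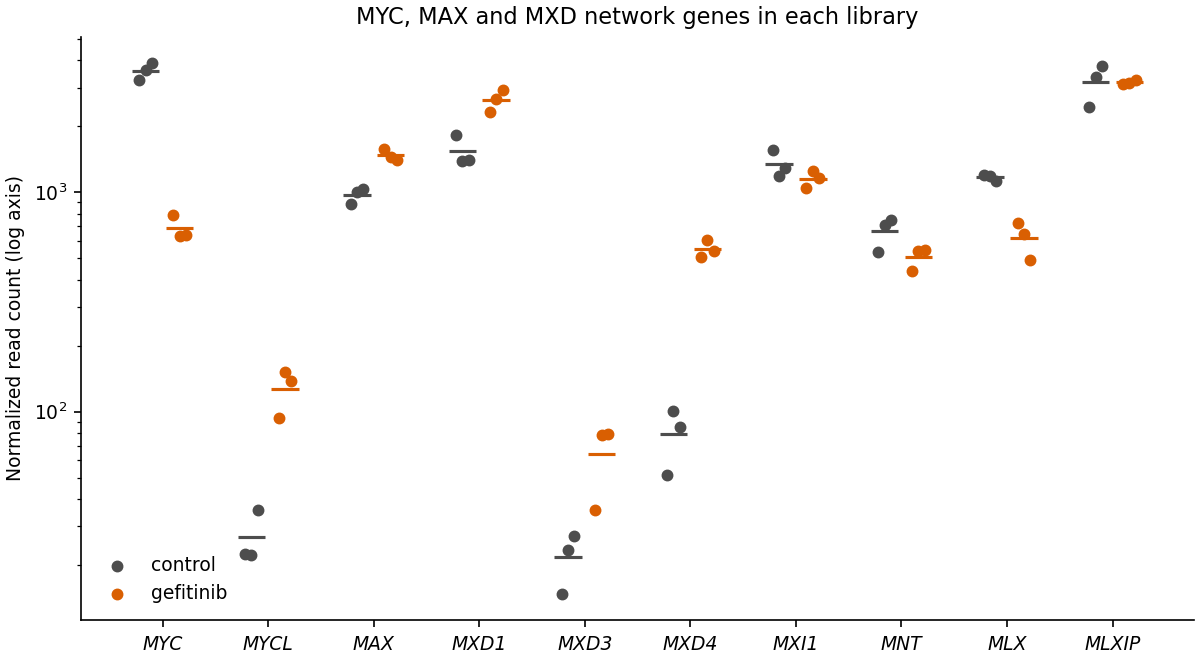
Normalized read counts (log axis) of the 10 network genes in each library, 3 control (grey) and 3 gefitinib (orange), with group means as bars. MYC lies between 3239.9 and 3873 in control and between 633 and 791 with gefitinib, while MXD4 moves from at most 100.4 to at least 505.

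The libraries held from 13674237 to 38581498 reads in coding genes, and all values above 0 were whole reads after rescaling. Control replicate 1 stood apart from the other control libraries on principal component 2 of the log2 values (9.59% of the variance), at -38.1 against 12.6 and 28.8. Where a member's sign or call changed without it, or a list count changed more than 1.5 times, both values are given. Gefitinib replicate 1 lay on the same side, at -23.3 against 8.86 and 11.1, and was also lower on component 1 (51.4 against 65.9 and 70.5); no call on a member changed without it. Epithelial markers were abundant, with summed normalized counts of 9 genes from 90462 to 130137 in control and from 75828 to 79475 with gefitinib. Of these genes, 6 were called lower and EPCAM higher, against 22.8% and 28.3% of all genes tested. Lung adenocarcinoma markers were near absent: NAPSA, SFTPB and SFTPC together had from 25.1 to 33.3 in the 6 libraries. Fibroblast markers (5 measured, from 32.4 to 71.4) and blood markers (6 measured, from 17.8 to 40.7) were low in both groups; of these only CD14 was called, higher with 1 read in the control and 30 in the gefitinib libraries. Of 4 endothelial markers only PECAM1 was called, falling from 1216 ± 80.4 (SD, n = 3) to 122 ± 10.5, while VWF was at 8.64 ± 3.72 and 5.18 ± 3.32. The part of these marker levels in the results was not tested.

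MYC, the activating arm's main gene, lies on chromosome 8 from 127735434 to 127741434 (GRCh38, plus strand). It had 3239.9, 3593 and 3873 normalized reads in control replicates 1 to 3 and 791, 633 and 637 with gefitinib. Every gefitinib library was below every control library, and the gap was far wider than the spread inside either group. The difference was -2.38 ± 0.11 (SE; limma adjusted p = 1.11e-06), with a 95% interval from -2.63 to -2.12. It rested on 11826 reads in the control libraries and 2658 in the gefitinib libraries. MYCL (chromosome 1, 39895426 to 39902256, minus strand), the relative of MYC first found in small cell lung cancer, went the other way. It had 22.6, 22.3 and 35.7 in control and 93.9, 151 and 138 with gefitinib, so the groups were apart although both were low. Its difference was 2.21 ± 0.29 (limma adjusted p = 0.000209), from 89 control and 532 gefitinib reads. MYCN, the third family gene, had no reads in control and 1 read in the gefitinib libraries. Per kilobase of annotated exon, MYCL rose from 5.31 ± 1.51 to 25.2 ± 5.90 (SD, n = 3), and MYC stood at 1189 ± 106 and 229 ± 30.0. MYC stayed the more abundant of the pair in every library, at 183 to 272 times the MYCL level in control and 7.08 to 14.2 times with gefitinib.

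MAX (chromosome 14, 65006174 to 65102695, minus strand), the shared partner of the MYC and MXD arms, had 882, 998 and 1039 normalized reads in control and 1578, 1451 and 1402 with gefitinib. All gefitinib libraries were higher, with a difference of 0.60 ± 0.10 (SE; limma adjusted p = 0.000690). MAX rose while MYC fell. Per kilobase of exon, MYC exceeded MAX 5.42, 5.31 and 5.50 times in the control libraries and was at 0.740, 0.644 and 0.671 of MAX with gefitinib.

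Among the repressors, MXD4 had the largest rise of the network. MXD4 (chromosome 4, 2247432 to 2262294, minus strand) encodes a MAX partner that recruits the SIN3 corepressor and is linked to cells leaving the cycle. It had 51.5, 100.4 and 84.9 normalized reads in control and 505, 604 and 542 with gefitinib, a difference of 2.84 ± 0.24 (SE; limma adjusted p = 1.63e-05; 95% interval from 2.30 to 3.37). The lowest gefitinib library was 5.03 times the highest control library. MXD1 (chromosome 2, 69897688 to 69942945, plus strand), the first MAD gene described and a marker of differentiation, was already well expressed. It had 1823, 1389 and 1403 in control and 2319.9, 2656 and 2929 with gefitinib, where control replicate 1 was the highest control and still below the lowest gefitinib library. The difference was 0.78 ± 0.13 (limma adjusted p = 0.000796). Exons of MXD1 share 237 bases, 3.73% of their total, with SNRNP27 on the same strand, which also rose, by 0.79 ± 0.17; the part of shared reads in the MXD1 value was not tested. MXD3 (chromosome 5, 177301461 to 177312757, minus strand), which unlike its relatives is best known from proliferating cells in S phase, had 14.8, 23.4 and 27.0 in control and 35.7, 78.6 and 78.8 with gefitinib. Gefitinib replicate 1 lay nearer to the controls than to the other gefitinib libraries. The MXD3 difference was 1.48 ± 0.38 (limma adjusted p = 0.00985), from 70 and 282 reads. Exons of MXD3 share 926 bases with RAB24 on the same strand and 1158 with PRELID1 on the opposite strand, and the counting of reads in shared bases is not described, so its values are uncertain. Neither neighbour was called (limma adjusted p = 0.234 for RAB24 and 0.287 for PRELID1); RAB24 averaged 15.5 and 9.06 normalized reads and PRELID1 averaged 1286 and 1415.

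MXI1 and MNT were not called. MXI1 (chromosome 10, 110207605 to 110287365, plus strand), a repressor of the same MXD family that is also induced by hypoxia, had 1550.5, 1193 and 1289.6 normalized reads in control and 1049, 1245 and 1163 with gefitinib. The groups overlapped, and the difference was -0.22 ± 0.12 (SE; limma adjusted p = 0.155), with a 95% interval from -0.48 to 0.05. MNT (chromosome 17, 2384060 to 2401118, minus strand), a broadly expressed antagonist of MYC, had 534, 707 and 749 in control and 436, 540.4 and 544 with gefitinib. Control replicate 1 fell among the gefitinib libraries. The difference was -0.38 ± 0.15 (limma adjusted p = 0.0657, over a range from 0.00360 to 0.206 for the alternatives). Without control replicate 1 it was -0.53 (limma adjusted p = 0.00360), and with TMM factors in place of the deposited scaling -0.44 (limma adjusted p = 0.0269), so MNT was called in some settings and not in others. Exons of MNT share 1065 bases, 12.2% of their total, with an antisense gene.

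The rises were thus not shared by the whole repressor arm. Of 5 antagonists among the members, 3 rose, where 28.3% of all genes tested were called higher. The values of MXI1 and MNT were lower on average. MGA, a large repressor that also pairs with MAX and is part of a Polycomb complex, was counted outside the 10 genes. MGA (chromosome 15, 41621224 to 41773081, plus strand) fell from 1433, 1447 and 1544 normalized reads in control to 514, 589 and 455 with gefitinib. No library overlapped, and the difference was -1.51 (limma adjusted p = 7.92e-06).

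In the MLX arm, MLX itself fell and its main partner gene did not pass the test. MLX (chromosome 17, 42567068 to 42573239, plus strand) had 1203, 1181 and 1131 normalized reads in control and 723, 647 and 489 with gefitinib, with every gefitinib library below every control. The difference was -0.94 ± 0.14 (SE; limma adjusted p = 0.000459). Its exons share 770 bases, 18.1% of the total, with PSMC3IP on the opposite strand, and PSMC3IP moved the other way, from 288 ± 6.68 to 622 ± 21.4 (SD, n = 3). MLXIP (chromosome 12, 122078722 to 122147347, plus strand) had 2438, 3346 and 3749 in control and 3123, 3165 and 3262 with gefitinib. Control replicate 1 was below and the other controls above all gefitinib libraries. The difference of 0.03 ± 0.14 (limma adjusted p = 0.896) had a 95% interval from -0.29 to 0.34, and without control replicate 1 it turned to -0.15 (limma adjusted p = 0.0773). MLXIPL, which encodes ChREBP, the liver-type relative of MondoA, was low, at 51.6 in control and 46.7 with gefitinib on average (limma adjusted p = 0.680). Per kilobase of exon, MLXIP was at 0.834 ± 0.199 of MLX in control and at 1.62 ± 0.375 times MLX with gefitinib.

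**Figure D2:**
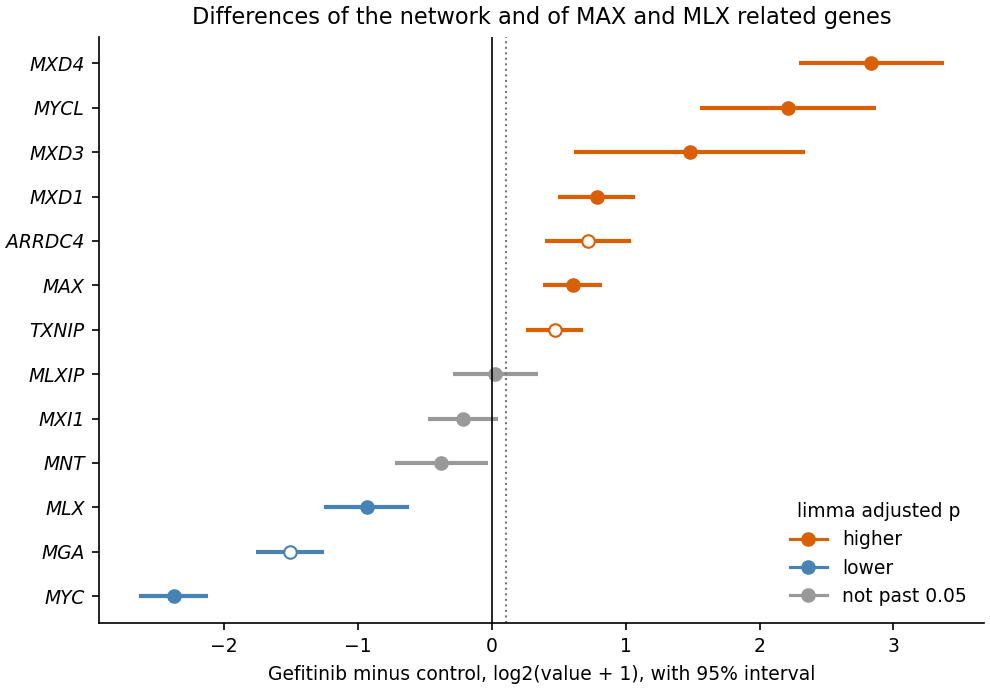
Gefitinib minus control differences with 95% intervals for the 10 network genes (filled points) and for MGA, TXNIP and ARRDC4 (open points), coloured by the limma call; the dotted line is the median of all genes tested, 0.10. MYC, MGA and MLX lie to the left, MXD4, MYCL and MXD3 to the right, and the intervals of MXI1 and MLXIP include 0.

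The preferred E-box was searched in RefSeq promoter windows (GRCh38.p14, 250 bases before to 50 after each annotated start). The search covered 12 windows of 9 of the 10 members. No window of MYC was searched, so whether its promoter holds the motif was not tested. CACGTG, which reads the same on both strands, was found once each in the windows of MXD4, MLX and MNT and in no window of the other 6 genes. Of all 35116 windows in the table, 7.26% held it. No chromosome was left out of that count, whereas the member windows do not cover the chromosome of MYC. The 3 windows are shown because these genes are themselves members of the network that binds this motif; the motif is in capitals and each sequence reads 5′ to 3′ on the gene's strand. The MXD4 window is chr4:2262060-2262359 (minus strand), the MLX window chr17:42566850-42567149 (plus strand) and the MNT window chr17:2401011-2401310 (minus strand).
MXD4: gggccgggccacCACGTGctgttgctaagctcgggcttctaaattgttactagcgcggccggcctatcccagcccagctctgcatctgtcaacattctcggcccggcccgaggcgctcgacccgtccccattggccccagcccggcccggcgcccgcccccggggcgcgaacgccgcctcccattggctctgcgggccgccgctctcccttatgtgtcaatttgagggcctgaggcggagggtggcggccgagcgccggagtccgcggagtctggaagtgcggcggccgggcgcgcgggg
MLX: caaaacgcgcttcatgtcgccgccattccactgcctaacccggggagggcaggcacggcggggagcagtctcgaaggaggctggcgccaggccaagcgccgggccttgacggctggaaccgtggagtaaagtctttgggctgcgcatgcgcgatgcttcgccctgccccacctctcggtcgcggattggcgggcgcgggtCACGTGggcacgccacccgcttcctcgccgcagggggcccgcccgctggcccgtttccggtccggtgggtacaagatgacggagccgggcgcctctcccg
MNT: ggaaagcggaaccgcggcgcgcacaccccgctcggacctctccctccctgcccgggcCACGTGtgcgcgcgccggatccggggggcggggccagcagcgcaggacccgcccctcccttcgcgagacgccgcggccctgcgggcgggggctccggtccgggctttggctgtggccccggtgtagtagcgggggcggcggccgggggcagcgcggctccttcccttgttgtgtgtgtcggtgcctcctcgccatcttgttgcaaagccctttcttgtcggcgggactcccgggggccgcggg
The motif begins 238 bases before the start in MXD4, 50 bases before it in MLX and 193 bases before it in MNT. The 3 genes did not move alike: MXD4 rose, MLX fell and MNT did not pass the test. A match to these letters is a description of the sequence, and binding was not measured.

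The order of the transcripts changed at the top. In control, MYC led at 1189 ± 106 normalized reads per kilobase of exon (SD, n = 3), above every library of MXI1, the next gene at 292 ± 40.2. MXI1, MLX at 275 ± 8.61, MXD1 at 242 ± 38.9, MLXIP at 229 ± 48.3 and MAX at 219.6 ± 18.4 followed, and each of these overlapped its neighbour. MNT, at 76.0 ± 13.1, was below them all. MXD4 at 11.2 ± 3.54, MYCL at 5.31 ± 1.51 and MXD3 at 4.22 ± 1.22 were the lowest, of which MYCL and MXD3 overlapped. With gefitinib MXD1 led at 415 ± 48.1, then MAX at 333 ± 20.5, with no overlap between them. MXI1 at 250.1 ± 21.4, MYC at 229 ± 30.0 and MLXIP at 229 ± 5.15 came next and overlapped. MLX at 146 ± 28.0, MXD4 at 78.0 ± 7.04, MNT at 58.1 ± 7.01, MYCL at 25.2 ± 5.90 and MXD3 at 12.5 ± 4.81 followed without overlap between neighbours. This order takes the union of annotated exons as the length of each gene, and close neighbours may overlap or trade places with another length. For MXD1 the union is 6351 bases and the longest transcript 5587, against 4430 and 3155 for MAX. The order was not worked out with the longest transcript.

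The same levels give the make-up of the transcripts of 7 members that encode MAX partners; MGA, a further partner that fell from 83.6 ± 3.43 to 29.4 ± 3.80 per kilobase (SD, n = 3), is not in this sum. Summed per kilobase over MYC, MYCL, MXD1, MXD3, MXD4, MXI1 and MNT, the activators MYC and MYCL made up 60.9%, 67.5% and 68.2% in the control libraries and 28.1%, 22.1% and 21.6% with gefitinib. The group means were 65.6% ± 4.03 and 23.9% ± 3.63 (SD, n = 3), and 62.7% ± 3.84 and 23.3% ± 3.50 with MGA added to the sum. The 4 MXD-family genes MXD1, MXD3, MXD4 and MXI1 went from 30.3% ± 4.66 to 70.6% ± 3.24. MXD1 alone went from 13.3% ± 2.44 to 38.8% ± 2.65 and MXD4 from 0.614% ± 0.195 to 7.30% ± 0.470. The sum of all 7 was 1819.9 ± 70.6 per kilobase in control and 1068 ± 56.2 with gefitinib, which is 8.31 ± 0.551 and 3.22 ± 0.356 times the MAX level. Against MAX, the 4 MXD-family genes together stood at 2.53 ± 0.565 and 2.28 ± 0.349. These shares are of RNA, not of protein, carry no test because the genes were chosen, and take the union of annotated exons as the length of each gene.

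**Figure D3:**
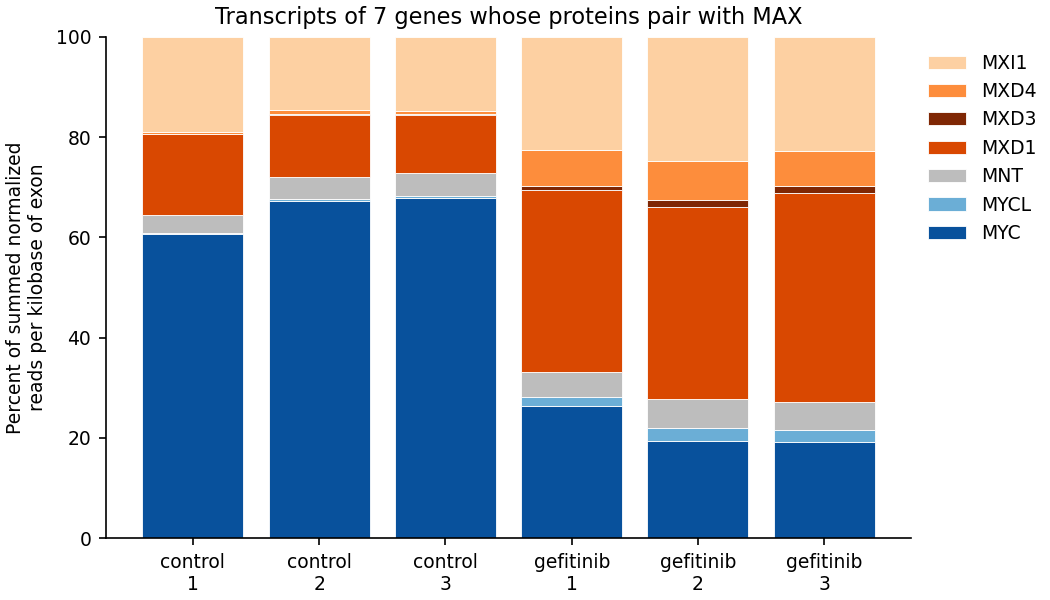
Share of each of 7 genes in their summed normalized reads per kilobase of exon, 1 bar per library. The blue parts (MYC and MYCL) take from 60.9% to 68.2% in the control libraries and from 21.6% to 28.1% with gefitinib, and the MXD-family parts go from 30.3% to 70.6% on average.

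The 5 genes whose log2 values over the 6 libraries were most correlated with MYC, among 10021 genes with a mean of at least 100, were FAM57A, CAPN2, TRAF3, B3GNT3 and AIMP2, with Pearson's r from 0.9991 to 0.9996. With 2 groups so far apart, r mainly shows the group difference and says nothing of its size. FAM57A went from 982 ± 48.4 to 272 ± 30.4 normalized reads (SD, n = 3), TRAF3, a signalling adaptor, from 1156 ± 87.2 to 360.5 ± 38.0 and B3GNT3, a glycosyltransferase gene, from 2998 ± 228 to 961 ± 110. AIMP2, which encodes a scaffold of the tRNA synthetase complex, went from 1113 ± 87.0 to 332 ± 20.4. CAPN2, which encodes a calpain protease, changed far less, from 14863 ± 303 to 10960.4 ± 321.

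Genes usually counted as MYC targets moved in both directions. Of 57 genes in the list of nucleolar and growth targets, 29 fell (50.9%, against 22.8% of all genes tested), 7 rose (12.3%, against 28.3%) and 21 did not pass, with a median difference of -0.48 against 0.10 for all genes tested. The list is not of nucleolar genes only: TMEM97, for example, encodes a membrane protein. Leaving out 1 library, the fallers ran from 23 without gefitinib replicate 2 to 38 without control replicate 1. In those settings 2861 of 15138 and 4001 of 15160 genes were lower. NOP2, a nucleolar RNA methyltransferase gene, fell from 2702 to 999.8 normalized reads on average, TMEM97 from 7533 to 3287 and AIMP2 as given above. MYBBP1A, a nucleolar MYB-binding protein gene, had the largest fall of the set at -2.60 ± 0.20 (SE; named after its values were seen). NPM1, which encodes the nucleolar protein nucleophosmin, rose by 0.31 ± 0.10 (limma adjusted p = 0.0259; also named after its values were seen). Of 25 other classic activated genes tested, 10 rose (40% against 28.3% of all genes), 8 fell (32% against 22.8%) and 7 did not pass, with a median of 0.26. POLR1B, a subunit gene of RNA polymerase I, fell by 1.40 ± 0.09 and FKBP4, a chaperone partner gene, by 0.60 ± 0.08, whereas UBTF, which encodes a factor of the same polymerase, rose by 1.25 ± 0.15. ODC1, the ornithine decarboxylase gene often used as a MYC readout, fell by 0.22 ± 0.07 (limma adjusted p = 0.0344; named after its values were seen).

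Of 9 genes that MYC is known to repress, 4 rose (44.4% against 28.3% of all genes), 1 fell (11.1% against 22.8%) and 4 did not pass, with a median of 0.06. The cell cycle inhibitor gene CDKN1A rose by 1.41 ± 0.14 (SE), CDKN2B, another inhibitor, by 0.49 ± 0.10 and CEBPA, a differentiation factor gene, by 0.95 ± 0.28. CDKN1C had no reads in the 3 control libraries and 11 in the 3 gefitinib libraries, which is too few for a level. The faller was NDRG1, at -0.51 ± 0.08. TXNIP and ARRDC4, the arrestin genes most used as readouts of MondoA and MLX, both rose. TXNIP had 11160.1, 9147 and 9060.2 normalized reads in control and 14033, 13009 and 13417 with gefitinib (limma adjusted p = 0.00269), and ARRDC4 had 2288, 1808 and 1671 and then 3738, 2969 and 2782 (limma adjusted p = 0.00236). Neither gene's groups overlapped, and 32.3% of all genes tested were likewise higher without overlap.

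Genes of proteins that work with the network were called about as often as all genes. Of 17 corepressor genes of the SIN3 and NCOR complexes, through which MXD and MNT proteins repress, 5 rose and 5 fell (29.4% each, against 28.3% and 22.8% of all genes) and 7 did not pass, with a median of -0.0025. ARID4A and ING1, subunits of the SIN3 complex, rose by 1.66 ± 0.13 (SE) and 1.40 ± 0.10, and SAP18, ARID4B and BRMS1 by 0.67, 0.51 and 0.61. SUDS3, the scaffold that stabilises SIN3 with its deacetylases, changed by -1.04 ± 0.09, and HDAC2, SIN3A, NCOR1 and RBBP4 by -0.61, -0.30, -0.34 and -0.24. Of 24 cofactors and regulators of MYC stability, 7 rose (29.2%), 4 fell (16.7%) and 13 did not pass, with a median of 0.06. SKP2, a ubiquitin ligase gene that acts on MYC, rose 3.60-fold, with a difference of 1.85 ± 0.10, and PPP2R5A, a phosphatase subunit gene, by 0.96 ± 0.10. FBXW7, the ligase gene that marks phosphorylated MYC for destruction, rose by 0.57 ± 0.13 (named after its values were seen). KAT5, which encodes the TIP60 acetyltransferase, fell by 1.64 ± 0.17, and USP36, a deubiquitinase gene, RUVBL1 and KIAA1524, which encodes the MYC-stabilising CIP2A, by 0.83, 0.68 and 0.68. The number of fallers in this list was 7 with TMM factors, under which 24.9% of all genes were lower. It was 9 without control replicate 1, where 4001 of 15160 genes were lower.

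Among 11 other genes of the basic helix-loop-helix zipper class whose proteins also bind E-boxes, 1 rose (9.09% against 28.3% of all genes), 5 fell (45.5% against 22.8%) and 5 did not pass, with a median of -0.32. USF1 rose by 0.57 ± 0.12 (SE). Besides MGA, the fallers were TFE3 at -0.68, TFAP4, itself known as a MYC target, at -0.88, the sterol regulator gene SREBF2 at -0.32 and TFEB at -1.16, the last with 16.4 ± 3.52 and 7.36 ± 4.20 normalized reads (SD, n = 3). The number of fallers was 3 without control replicate 2, without control replicate 3, without gefitinib replicate 2 or without gefitinib replicate 3. In these settings 2867 of 15187, 3205 of 15185, 2861 of 15138 and 2917 of 15026 genes were lower, so the excess of fallers depended on the libraries used.

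**Figure D4:**
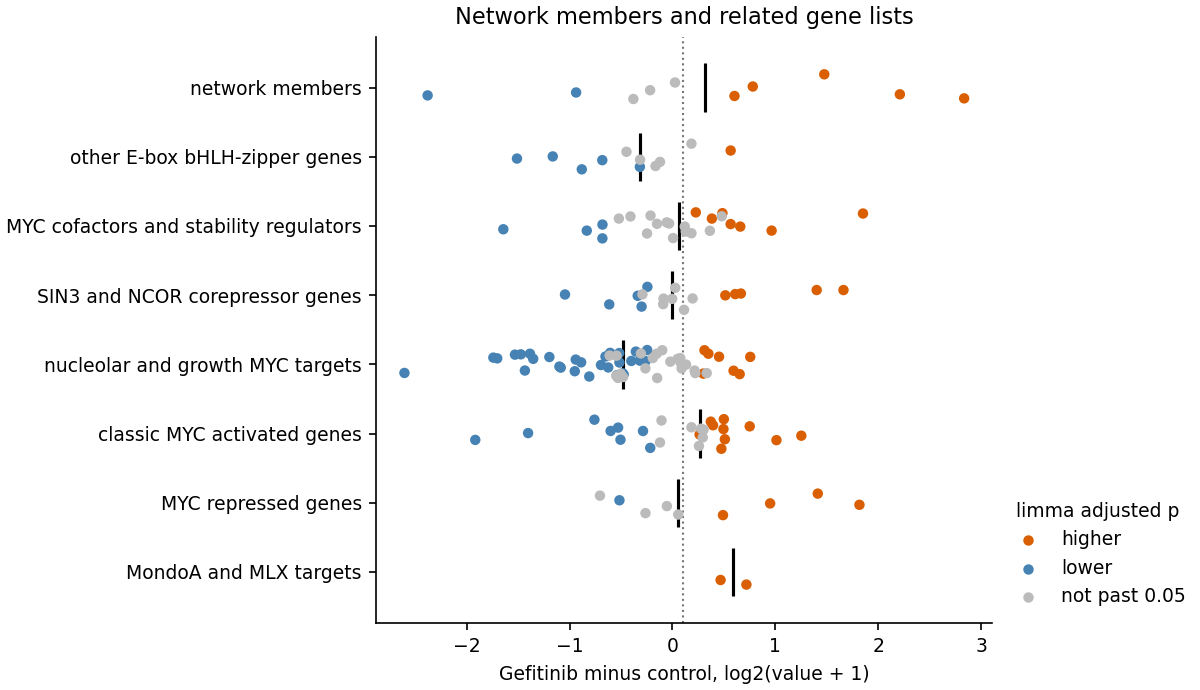
Gefitinib minus control differences for each member of the network and of 7 related gene lists, coloured by the limma call, with the list median as a black bar and the median of all genes tested (0.10) as a dotted line. The nucleolar and growth targets have their median at -0.48, and the network spans from -2.38 to 2.84.

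Across the 14 other ways of processing, the called members kept their direction and stayed past the threshold. MYC ranged from -2.48 to -2.32, MLX from -1.06 to -0.77, MAX from 0.53 to 0.65, MXD1 from 0.70 to 0.91, MYCL from 2.06 to 2.43 and MXD4 from 2.56 to 3.03. MXD3 was the least secure of the called genes, from 1.23 to 1.85 with adjusted p from 0.000458 to 0.0484 over limma, edgeR and DESeq2 fits.

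**Figure D5:**
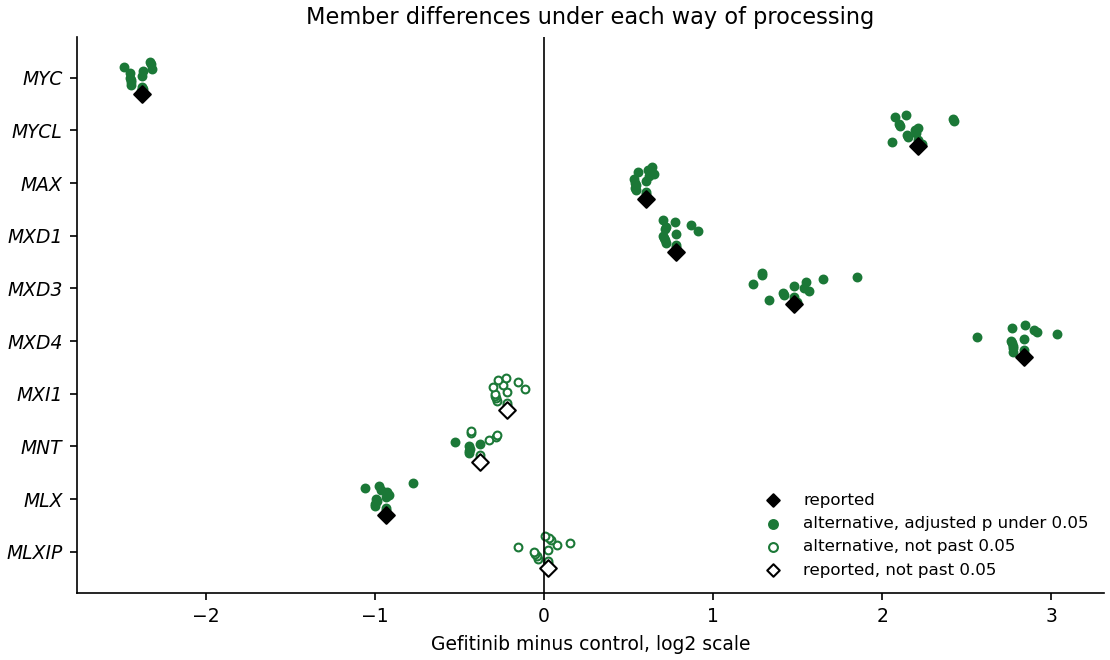
The difference of each member as reported (diamonds) and under each of 14 alternatives (circles), filled where the adjusted p is under 0.05. The points of the 7 called genes stay on 1 side of 0, whereas those of MLXIP fall on both sides and those of MNT are filled in 6 of 14.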

How the data were processed

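The 6 libraries were grouped by title. Per the submitters' processing notes, the authors used STAR and HTSeq with the GRCh38 genome; versions and any use of read strand are not stated there. The table the authors deposited holds a never-negative signal, counts of coding genes scaled to 18085800 per library. Of its values above 0, 100% came out as whole reads within 0.01, on which edgeR called 3707 genes higher and 3752 lower of 12167. Another table has 6 sample columns that match no label; only its gene IDs were used. Genes at 0 throughout (147 of 15376) were left out. The test was limma-trend 3.58.1 (R 4.3.3), 2-sided, on log2(value + 1), with Benjamini-Hochberg adjustment over 15229 genes. Alternatives were pseudocounts of 0.5 and 5, a mean of 10 or more, TMM factors, DESeq2 size factors, edgeR 4.0.16 and DESeq2 1.42.0 on recovered reads, a block for the replicate number, and leaving out each library. Positions, exon lengths and overlaps are from GENCODE 29. Libraries of each group differed by more than sampling noise, and the limma, edgeR and DESeq2 fits were tried on simulated data. The members and lists were chosen with earlier results of these data known. Named genes are the 10 members and the 3 of each other list past the threshold with the smallest p. List members completing a count of 5 or fewer, TXNIP, ARRDC4 and the 5 genes most correlated with MYC are named too. So are MYCN, MLXIPL, neighbours that share exons with members, and cell type markers. Others are marked.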

Additional observations from a re-analysis of the deposited data

How the results depend on the processing

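Of 140 values for the 10 member differences under the alternatives, 129 kept direction and side of the threshold. MNT passed it at -0.44 with TMM factors, DESeq2 size factors, edgeR and DESeq2, at -0.38 with the replicate block and at -0.53 without control replicate 1. It did not pass without any of the other 5 libraries, with a range from -0.53 to -0.28 over all 6. MLXIP, which never passed, changed sign to -0.036 with TMM factors, -0.040 with DESeq2 size factors, -0.051 with edgeR and -0.056 with DESeq2, and ranged from -0.15 to 0.16 leaving out 1 library. The cause was not tested. Of 252 counts, 243 stayed within 1.5 times. Fallers among MYC cofactors and stability regulators numbered 7 with TMM factors, DESeq2 size factors, edgeR and DESeq2, and from 4 to 9 leaving out 1 library, and those among other zipper genes from 3 to 6. All genes called lower ran from 2861 to 4001 leaving out 1 library. The share of MYC and MYCL was 64.7% in control and 23.8% with gefitinib with the longest transcript as the length; adding MGA to its sum was chosen after seeing the data; pseudocounts, scaling and tests do not enter it. Deviations of same-numbered libraries had small positive correlations (r = 0.127, 0.0444 and 0.0947). The labels give no pairing, so the main test did not treat these libraries as paired. Each gefitinib library correlated best with the control of its own number, whereas control replicate 2 correlated best with gefitinib replicate 3 (r = 0.0862), a hint from the data and not from the design. The replicate block gave 4438 genes higher and 3552 lower against 4312 and 3473. MYCL and MXD3 had the fewest control reads of the members, 89 and 70.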
